A study of Homo sapiens with 24 samples.

Results

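The genes described here form the switch that controls cofilin, the protein that severs actin filaments: the LIM kinases LIMK1 and LIMK2, the related kinase TESK1, cofilin itself (CFL1 and CFL2), the slingshot phosphatases SSH1, SSH2 and SSH3, and the upstream kinases ROCK1 and PAK2. They were found by symbol, and all 10 were listed and tested in both deposited tables, among 13025 genes listed for cells under vehicle and 58780 for cells under TPA. The set was put together around LIMK1, which was chosen by its measured fall in the knockdown (its deposited fold change and adjusted p), so its values are a description and not a test.

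RNA sequencing had been done on 24 libraries of the cutaneous T cell lymphoma lines MyLa (mycosis fungoides) and HuT 78 (Sézary syndrome), in 8 groups of 3. Each line carried either a non-targeting control hairpin (NTC) or a hairpin against PRKCQ (shPRKCQ) and was treated for 24 h with DMSO as vehicle or with TPA at 10 ng/ml. Knockdown cells had been in doxycycline at 1 µg/ml for at least 72 h, and the labels do not state whether NTC cells received it, so hairpin and drug cannot be told apart. Each deposited table compares 6 shPRKCQ with 6 NTC libraries of both lines together in 1 treatment, and values per library, per line and per clone are not analysed here.

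PRKCQ encodes protein kinase C theta, the isoform that acts at the T cell synapse, and the phorbol ester TPA stimulates protein kinase C enzymes directly. Cofilin binds and severs actin filaments and is switched off by phosphorylation on a serine near its N-terminus. LIM kinases and TESK1 add that phosphate, slingshots remove it, and ROCK and PAK kinases, which act under small GTPases, activate LIM kinase by phosphorylating its activation loop. In T cells cofilin is dephosphorylated upon costimulation and takes part in synapse formation and migration. The present values are transcript levels and carry no measure of phosphorylation or of protein kinase C activity after 24 h of TPA.

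The knockdown was seen in both treatments: PRKCQ was at 23.1% of the NTC level under vehicle and 23.7% under TPA, by calculation from the authors' deposited tables. Under vehicle 14 of 13007 tested genes had an adjusted p under 0.05 (0.108%), and under TPA 22 of 19417 (0.113%). Of 12 T cell markers, 5 were tested under vehicle (CD3D, CD3G, TRAC, TRBC1 and TRBC2) and 11 under TPA. CD2, CD3E, CD4, CD5, CD7 and LCK were tested under TPA only and CD28 in neither, and log2 fold changes of the tested T cell markers lay between -0.12 and 0.40 under vehicle and between -0.07 and 0.69 under TPA per the authors' deposited tables. Medians of these markers were 0.19 under vehicle and 0.20 under TPA, beside 0.01 over all tested genes in each. Of the markers of B cells, myeloid cells and epithelial or stromal cells, 1 of 5, 1 of 5 and 1 of 6 were tested under vehicle and 4, 2 and 5 under TPA, and none of any list passed. Under TPA the log2 fold changes ran from -1.10 to 0.32 for B cell markers, from 0.08 to 0.32 for myeloid and from -1.02 to 0.80 for epithelial or stromal markers per the authors' deposited table. The medians there were 0.11, 0.20 and 0.06. The single markers tested under vehicle were at 0.36, 0.11 and 0.31 per the authors' deposited table. Their part in the results was not tested.

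LIMK1 (ENSG00000106683.14, chromosome 7, 74082933 to 74122525, plus strand, GRCh38) was the lowest of the 10 genes in both treatments. It was chosen for its fall, so this rank is no test. Its DNA is shown because it is the gene the set was built on, beside that of its paralog LIMK2 (ENSG00000182541.17, chromosome 22, 31212239 to 31280080, plus strand). RefSeq lists a pair of start sites for each, and the 250 bases before each start follow, 5′ to 3′ on the plus strand of GRCh38. These starts are those of RefSeq: both LIMK1 windows lie inside the GENCODE span of the gene given above, and the bases just after the first LIMK1 start are in none of its GENCODE transcripts. Capitals mark the GC box, GGGCGG on either strand, the site bound by Sp1-type factors.
LIMK1, first start, chr7:74083554-74083803: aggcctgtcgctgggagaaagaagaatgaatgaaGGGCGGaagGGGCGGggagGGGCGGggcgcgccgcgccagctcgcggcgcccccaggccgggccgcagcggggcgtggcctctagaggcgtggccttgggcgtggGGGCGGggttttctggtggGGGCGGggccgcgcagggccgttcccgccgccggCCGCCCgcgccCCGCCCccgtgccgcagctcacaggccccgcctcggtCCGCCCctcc
LIMK1, second start, chr7:74092967-74093216: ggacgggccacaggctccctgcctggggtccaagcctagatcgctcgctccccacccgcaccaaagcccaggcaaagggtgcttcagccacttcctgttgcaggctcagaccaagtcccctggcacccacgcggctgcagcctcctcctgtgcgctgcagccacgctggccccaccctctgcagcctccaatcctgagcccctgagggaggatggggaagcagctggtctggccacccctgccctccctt
LIMK2, first start, chr22:31212048-31212297: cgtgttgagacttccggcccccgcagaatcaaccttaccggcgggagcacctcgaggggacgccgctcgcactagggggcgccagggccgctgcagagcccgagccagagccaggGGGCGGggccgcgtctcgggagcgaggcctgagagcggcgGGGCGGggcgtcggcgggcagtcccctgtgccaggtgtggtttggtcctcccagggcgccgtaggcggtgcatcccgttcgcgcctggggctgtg
LIMK2, second start, chr22:31248134-31248383: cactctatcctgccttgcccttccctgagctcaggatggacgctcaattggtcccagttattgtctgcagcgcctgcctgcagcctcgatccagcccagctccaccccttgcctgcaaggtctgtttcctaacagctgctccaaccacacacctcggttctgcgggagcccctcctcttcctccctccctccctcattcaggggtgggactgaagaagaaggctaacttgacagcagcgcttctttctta

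The first LIMK1 window is made of 79.6% G and C and holds 8 GC boxes, the first LIMK2 window is made of 74.4% and holds 2, and the second window of each gene holds none. Among the 35116 RefSeq windows of this length, the median is 58.0% G and C, and 42.6% hold at least 1 GC box. Windows were available for all 10 genes, 15 in number, and 12 of the 15 hold a GC box. What the G and C content adds to these counts was not tested. The AP-1 motif TGANTCA was in 0 of the 15, against 6.57% of all windows, and the cyclic AMP response element TGACGTCA in 0, against 1.65%. The NFAT core GGAAA was in 5 of 15 against 55.6% of all, with none in either LIMK1 window. The NF-kappaB consensus was in 1 of 15, that of TESK1, against 6.88% of all, and the CArG box of SRF in 0 against 1.16%. All motifs were sought on both strands, and no match says only that the letters are not in the window. The deposited fold changes are given per gene, so they do not separate the starts.

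Under vehicle, LIMK1 had a log2 fold change of -0.61 per the authors' deposited table, or 65.4% of that in NTC cells. The 95% interval implied by its p runs from 54.9% to 77.8% of NTC. The RNA came from whole cultures, in which a lower level per cell and fewer expressing cells cannot be told apart. LIMK1 stood in place 4 of 13007 genes by p and in place 106 by the size of the fall (authors' adjusted p = 0.00422), which is how it came to be chosen. It is the only one of the 10 genes called under vehicle, where 0.0769% of all genes were called as lower, and nothing is read from that count. Under TPA, LIMK1 was at -0.31 per the authors' deposited table, or 80.7% of NTC, with an interval from 68.1% to 95.6%. The unadjusted p under TPA was 0.0133 (authors' adjusted p = 0.92), so LIMK1 did not pass there, where 0.0876% of all genes were called as lower, and 0 of the 10 genes were called. The TPA libraries are other libraries than those of DMSO, but the TPA value too was known when the set was chosen.

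LIMK2, the second LIM kinase, had a log2 fold change of -0.07 under vehicle per the authors' deposited table, 95.3% of the NTC level, with an interval from 73.0% to 124%. Under TPA its log2 fold change was -0.25 per the authors' deposited table, 84.3% of NTC, with an interval from 65.2% to 109%. It gave the smallest p of the 9 genes other than LIMK1 under TPA (unadjusted p = 0.192) and did not pass. LIMK1 and LIMK2 intervals overlapped in both treatments, and because LIMK1 was chosen for its value the paralogs were not tested against each other. TESK1, a kinase that phosphorylates cofilin independently of ROCK and PAK, had log2 fold changes of -0.07 under vehicle and 0.11 under TPA per the authors' deposited tables. Its interval ran from 80.5% to 113% of NTC under vehicle and from 91.5% to 127% under TPA.

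**Figure D1:**
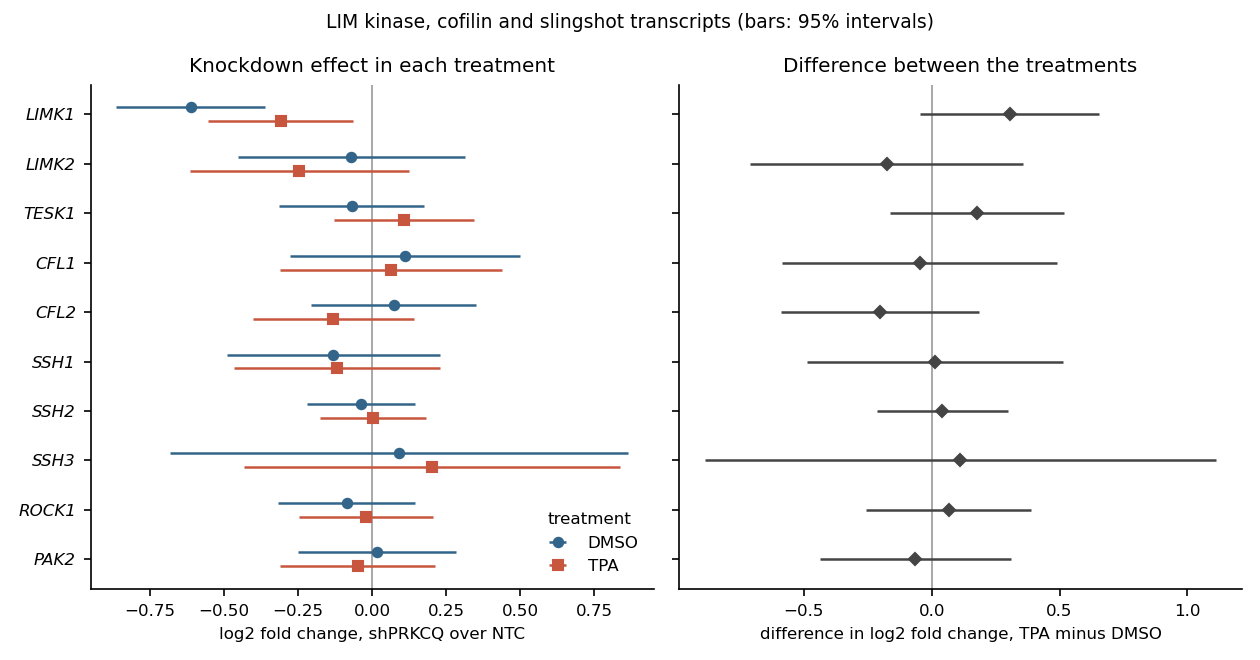
The left panel plots the log2 fold change of shPRKCQ over NTC for the 10 genes under vehicle (circles) and TPA (squares), and the right panel the difference of the fold changes, TPA minus DMSO; bars are 95% intervals implied by the authors' p-values. The intervals of LIMK1, which was chosen for its fall, lie below 0 in both treatments. LIMK1 did not pass under TPA (authors' adjusted p = 0.92). Intervals of the other 9 genes span 0, as do those of all 10 differences.

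CFL1, the cofilin of non-muscle cells, had a log2 fold change of 0.11 under vehicle and 0.06 under TPA per the authors' deposited tables. These are 108% and 105% of the NTC level, with intervals from 82.6% to 141% and from 80.7% to 135%. CFL1 has 8 annotated pseudogenes named after it, to which reads could be split, and CFL1P1, the only one tested in both treatments, was at 0.01 and 0.02 per the authors' deposited tables. CFL2, the muscle-type cofilin, had log2 fold changes of 0.07 under vehicle and -0.13 under TPA per the authors' deposited tables, with intervals from 86.7% to 128% and from 75.7% to 110% of NTC. Neither cofilin passed in either treatment. CFL1 overlaps SNX32 and MUS81 on the opposite strand, TESK1 overlaps CD72 and SSH2 overlaps EFCAB5. The libraries keep the strand, but whether the counting used it is not given in the sources used here, and without strand the reads of such partners cannot be told apart.

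Among the slingshots, SSH1, the best-studied cofilin phosphatase, had log2 fold changes of -0.13 under vehicle and -0.12 under TPA per the authors' deposited tables (91.3% and 92.1% of NTC). Its interval ran from 71.2% to 117% of NTC under vehicle and from 72.4% to 117% under TPA. SSH2 had the narrowest intervals of the 10 genes, from 85.9% to 111% of NTC under vehicle and from 88.6% to 114% under TPA, around log2 fold changes of -0.04 and 0.004 per the authors' deposited tables. SSH3 had the widest, from 62.3% to 182% and from 74.1% to 179%, around log2 fold changes of 0.09 and 0.20 per the authors' deposited tables. For SSH3 a fall as large as that of LIMK1 under vehicle lies within the DMSO interval, so it is not excluded. For SSH2 such a fall lies outside the DMSO interval. Whether a fall of that size would have passed in these genes was not tested.

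The upstream kinases stood near the NTC level. ROCK1, the kinase under RhoA, had log2 fold changes of -0.09 under vehicle and -0.02 under TPA per the authors' deposited tables, with intervals from 80.3% to 111% and from 84.3% to 115% of NTC. PAK2, the widely expressed kinase under Rac and Cdc42, had log2 fold changes of 0.02 and -0.05 per the authors' deposited tables, with intervals from 84.0% to 122% and from 80.6% to 116% of NTC.

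Over the 9 genes other than LIMK1, log2 fold changes ran from -0.13 (SSH1) to 0.11 (CFL1) under vehicle and from -0.25 (LIMK2) to 0.20 (SSH3) under TPA per the authors' deposited tables. In each treatment 5 were negative and 4 positive, with medians of -0.04 and -0.02 beside 0.01 over all tested genes in each. None of the 9 passed in either treatment, by the authors' adjusted p, by an adjustment over the genes of both tables or with p-values rescaled for their spread, and 0 had an unadjusted p under 0.05, where 3.04% of all genes did under vehicle and 3.99% under TPA. Intervals within 0.5 of 0 on the log2 scale were found for 8 of the 9 under vehicle, all but SSH3, and for 7 under TPA, all but LIMK2 and SSH3. CFL1 under vehicle was only just counted, with an upper limit of 0.499996. The share of all tested genes with such intervals was not computed, so nothing particular to these genes is read from the counts. The median implied standard error over all tested genes was 0.172 under vehicle and 0.220 under TPA.

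The effects in the treatments were compared by the difference of the fold changes over the implied standard errors. LIMK1 differed by 0.30 on the log2 scale, TPA minus DMSO, with an interval from -0.05 to 0.66, given as a description since LIMK1 was picked for its value under vehicle. None of the 10 genes passed (adjusted p = 1.00 for each over 13007 genes), and 0 of all 13007 genes did (0%). An unadjusted p under 0.05 was found for 0 of the 10 and 57 of all genes (0.438%). The robust SD of z over the differences of all 13007 genes was 0.579, where the test takes 1. For the knockdown effects themselves it was 0.753 under vehicle and 0.840 under TPA. The test took the treatments as independent, and what shared lines and hairpins add to this spread was not tested. With p-values rescaled for the spread of 0.579, LIMK1 had an adjusted p of 0.296. Fold changes under TPA may be shrunken and on another scale, and what this adds to the differences was not tested. CFL2 had the largest negative difference at -0.20, with an interval from -0.59 to 0.18. TESK1 was the next positive one at 0.18, with an interval from -0.16 to 0.52. The sign was shared by both treatments in 6 of the 10 genes (LIMK1, LIMK2, CFL1, SSH1, SSH3 and ROCK1) and opposite in 4 (TESK1, CFL2, SSH2 and PAK2). The share of genes with a shared sign over all genes was not computed, so nothing is read from this count.

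**Figure D2:**
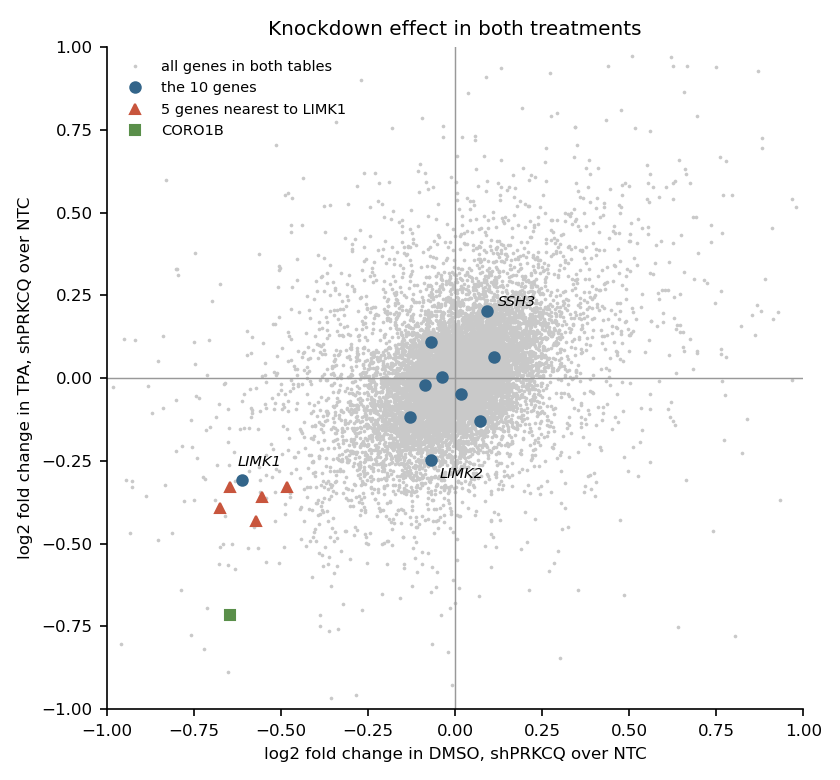
Each grey point is a gene of both tables, placed by its log2 fold change of shPRKCQ over NTC under vehicle (horizontal) and TPA (vertical); the 10 genes, the 5 genes nearest to LIMK1 and CORO1B are marked, and 76 genes beyond 1 on either axis are not shown. LIMK1, which was chosen for its fall, lies at -0.61 and -0.31. The other 9 genes lie between -0.13 and 0.11 under vehicle and between -0.25 (LIMK2) and 0.20 under TPA.

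The genes whose pair of fold changes was closest to that of LIMK1, by distance on the log2 scale over the 2 tables, were sought among the 133 genes with an unadjusted p under 0.05 in both. In order they were NFATC2, the transcription factor NFAT1; LCP1, the actin-bundling protein L-plastin of leukocytes; the pseudogene FAR2P1; PTPN14, a protein tyrosine phosphatase; and EPB41L4B, a FERM domain protein. NFATC2 was at -0.65 under vehicle and -0.33 under TPA and LCP1 at -0.56 and -0.36 per the authors' deposited tables, at distances of 0.040 and 0.077 from LIMK1. FAR2P1 was at -0.68 and -0.39, PTPN14 at -0.57 and -0.43, and EPB41L4B at -0.48 and -0.33 per the authors' deposited tables. These genes were selected for the likeness, over 2 values each, so it carries no test.

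The rest of the pathway was described with 6 lists of 92 genes in all. Under vehicle 84 were tested and under TPA 89, and 0 passed by the authors' adjusted p in either treatment. In each treatment 4 had an unadjusted p under 0.05, 2 lower and 2 higher, which is 4.76% of the list genes under vehicle and 4.49% under TPA, beside 3.04% and 3.99% of all tested genes. The median log2 fold change over the lists was 0.03 under vehicle and 0.02 under TPA, beside 0.01 over all tested genes in each.

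Coronin 1B stood lowest. CORO1B, an actin-binding protein known to bring SSH1 to the Arp2/3 complex, had log2 fold changes of -0.65 under vehicle and -0.71 under TPA per the authors' deposited tables, which are 63.9% and 60.9% of the NTC level. It did not pass (unadjusted p = 0.00289 and 0.000512; authors' adjusted p = 0.523 and 0.182). With p-values rescaled for their narrow spread it did (adjusted p = 0.0139 and 0.0125), as did 109 of all 13007 genes under vehicle (0.838%) and 113 of 19417 under TPA (0.582%). The other 15 genes tested under vehicle from the list of cofilin relatives and actin turnover included TWF1, twinfilin, which caps and sequesters actin, at 0.44 per the authors' deposited table (unadjusted p = 0.0375); under TPA it was at 0.29 per the authors' deposited table (unadjusted p = 0.147). The list medians were 0.05 under vehicle and 0.06 under TPA, with 9 of 16 and 13 of 17 genes positive. The share of positive genes over all tested genes was not computed.

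Of the upstream GTPases and kinases, 2 of 14 genes under vehicle and 3 of 16 under TPA had an unadjusted p under 0.05 (14.3% and 18.8%, beside 3.04% and 3.99% of all tested genes). RHOA, the GTPase that activates ROCK, was at -0.15 under vehicle and -0.14 under TPA per the authors' deposited tables (unadjusted p = 0.0176 and 0.0272). CDC42, a GTPase that activates PAK kinases, was at 0.24 and 0.20 per the authors' deposited tables (unadjusted p = 0.0163 and 0.0497). RHOB, a small GTPase gene of the immediate early type, was at 0.92 under TPA and 0.27 under vehicle per the authors' deposited tables (unadjusted p = 0.00996 and 0.558). None of the 3 passed over all genes, with the authors' adjusted p between 0.816 and 1.00. Of the 84 list genes tested in both treatments, RHOA, CDC42 and CORO1B had an unadjusted p under 0.05 in both (3.57%), beside 133 of all 13007 genes of both tables (1.02%). List medians were 0.04 under vehicle and 0.06 under TPA.

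**Figure D3:**
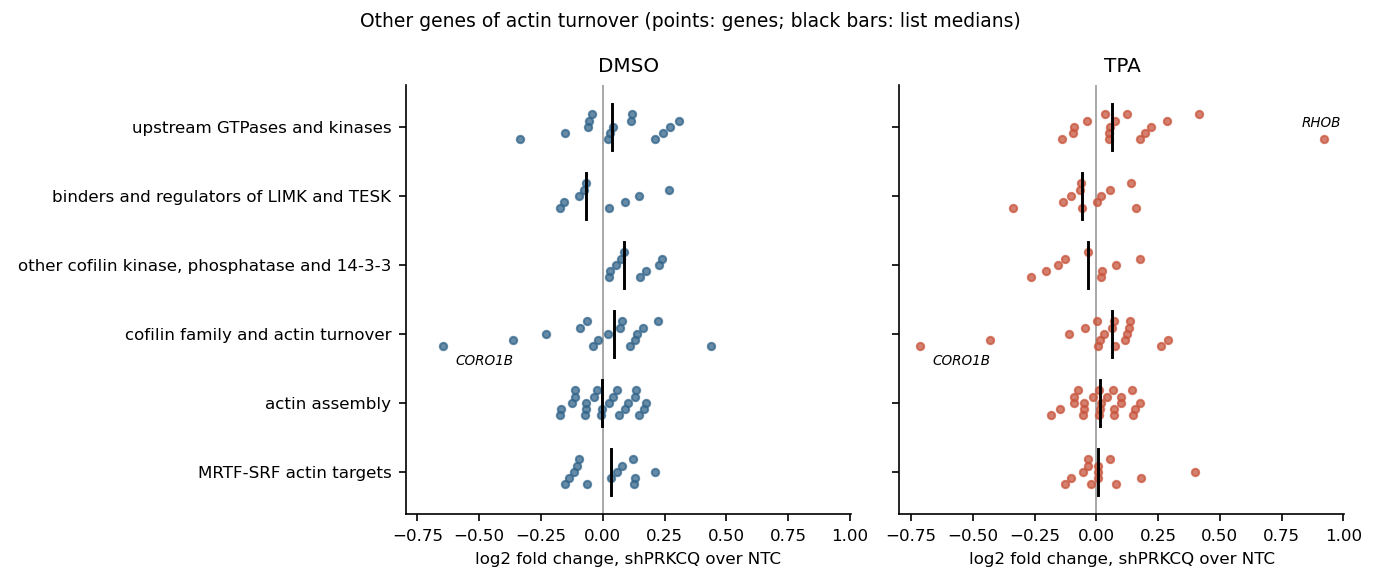
Each point is a tested gene of 1 of the 6 lists, placed by its log2 fold change of shPRKCQ over NTC under vehicle (DMSO, left) and TPA (right), with black bars for list medians; points are spread vertically for sight only. CORO1B lies lowest in both panels and RHOB highest under TPA, and list medians lie between -0.07 and 0.09.

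The remaining lists held no gene with an unadjusted p under 0.05. Binders and regulators of LIM and TES kinases had medians of -0.07 under vehicle and -0.06 under TPA over 9 and 11 genes. NISCH, nischarin, an inhibitor of LIMK1, had the smallest p of the list under vehicle and was at -0.16 there and -0.10 under TPA per the authors' deposited tables (unadjusted p = 0.152 and 0.336). RLIM, a ubiquitin ligase that acts on LIM domain proteins, had the smallest p under TPA and was at -0.09 under vehicle and -0.14 under TPA per the authors' deposited tables. In the list of TESK2, chronophin (PDXP) and the 14-3-3 proteins, which bind phosphorylated cofilin and slingshots, all 9 genes were positive under vehicle with a median of 0.09, and 4 of 9 were positive under TPA with a median of -0.03. The share of positive genes over all tested genes was not computed, so nothing is read from these counts. YWHAE, a 14-3-3 protein, was at 0.17 under vehicle (unadjusted p = 0.106) and 0.08 under TPA, and TESK2 at 0.07 and 0.18 per the authors' deposited tables (unadjusted p under TPA = 0.306).

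Actin, Arp2/3 subunits, their activators, formins and capping protein, 23 genes, had medians of 0.00 under vehicle and 0.01 under TPA. ACTR3, a core subunit of the Arp2/3 complex, was at 0.13 under vehicle (unadjusted p = 0.0516) and 0.07 under TPA, and CAPZA1, of capping protein, at 0.13 and 0.15 (unadjusted p under TPA = 0.0644) per the authors' deposited tables. SRF, its actin-sensing cofactors and their cytoskeletal targets had medians of 0.03 and 0.01 over 13 genes in each treatment. TPM1, a tropomyosin, had the smallest p of that list under vehicle, at 0.21 per the authors' deposited table (unadjusted p = 0.152). ACTN1, alpha-actinin, had the smallest under TPA, at 0.40 per the authors' deposited table (unadjusted p = 0.0827).

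LIMK1 lies in a dense stretch of chromosome 7, with 25 further annotated genes within 500000 bases of its ends, 16 of them protein coding. Under vehicle 10 of these were tested and 0 passed or had an unadjusted p under 0.05. Their log2 fold changes ran from -0.13 to 0.19 per the authors' deposited table. Of the 10, 9 were negative and 1 positive, with a median of -0.06 beside 0.01 over all tested genes. The share of negative genes over all tested genes was not computed, so nothing is read from this count. LIMK1 was at -0.61, the value it was chosen for, so its place below these neighbours is no test. The intervals of CLDN4 (-0.76 to 0.63), METTL27 (-0.84 to 0.63) and LAT2 (-0.67 to 0.58) under vehicle hold that value. EIF4H, a translation initiation factor gene next to LIMK1, had the smallest p of the 10 neighbours. It was at -0.13 under vehicle and -0.16 under TPA per the authors' deposited tables (unadjusted p = 0.288 and 0.171). Under TPA 17 neighbours were tested and 0 passed, with log2 fold changes from -1.12 to 0.27 per the authors' deposited table. Of the 17, 10 were negative and 7 positive, with a median of -0.06. ELN, the elastin gene on the other side of LIMK1, and CLDN3 lay below LIMK1 at -0.31. ELN was at -0.80 under TPA per the authors' deposited table (unadjusted p = 0.0505) and was not tested under vehicle; it is named after its value was seen. CLDN3, a claudin gene, was at -1.12 under TPA per the authors' deposited table (unadjusted p = 0.00341, authors' adjusted p = 0.487) and was the 1 neighbour with an unadjusted p under 0.05; it was not tested under vehicle.

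**Figure D4:**
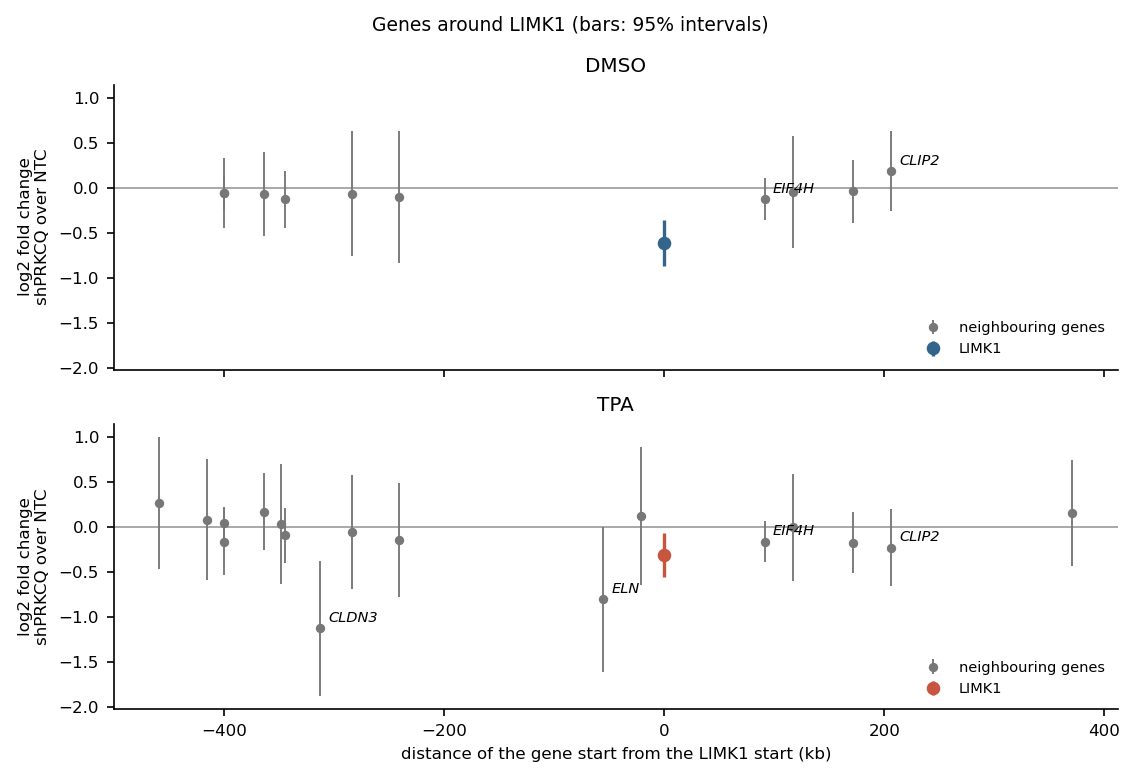
Log2 fold changes of shPRKCQ over NTC are plotted for LIMK1 (coloured) and the tested genes around it (grey) against the distance of their starts from that of LIMK1, under vehicle (top) and TPA (bottom), with 95% intervals implied by the authors' p-values. Under vehicle all 10 neighbours lie between -0.13 and 0.19 with intervals that span 0, and under TPA the interval of CLDN3 at -1.12 does not span 0.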

How the data were processed

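RNA of 24 libraries was measured by strand-specific poly(A) RNA sequencing, per the labels' protocols. Tools named in the submitters' processing notes, without their roles, are DESeq2 1.18.1, RSEM 1.3.0 and STAR 2.5.3a, with GRCh38 as the build; model formula and shrinkage: not given in the sources used here. Per the file headers, each gene of the deposited tables has 3 values: log2 fold change, p-value, adjusted p-value. The direction is not stated; negative was taken as lower in shPRKCQ, because PRKCQ is negative in both. Benjamini-Hochberg adjustment of the deposited p-values gave the deposited adjusted values to within a share of 0.00235 (DMSO) and 0.00451 (TPA) of the value. In TPA 2910 genes share the log2 fold change 0.000537, as shrunken values would, so the tables may not share 1 scale, and the implied intervals under TPA may be too narrow. All gene identifiers matched GENCODE release 29.

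Calls were made at 0.05 on the deposited adjusted p. From each p and fold change a z-value, an implied standard error and a 95% interval were computed, and differences between treatments were tested on the normal scale, two-sided, taking the tables as independent. The procedure was run on simulated independent normal values. These have neither the narrow spread of the deposited z-values nor the tied fold changes under TPA, so the simulation does not cover those features. Percentages of NTC are the fold changes off the log2 scale. Depth is unknown and no count test was run, although the design allowed for one. Start-site sequences are from RefSeq (GRCh38.p14). The genes, lists and tests were chosen with earlier results of these data known. Genes named from a list are those with the smallest p in a treatment or an unadjusted p under 0.05 in both; TWF1 was named after its value was seen. Calculations used Python 3.11.15, numpy 2.4.6, pandas 2.3.3, scipy 1.17.1 and matplotlib 3.10.9.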

Additional observations from a re-analysis of the deposited data

How the results depend on the processing

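No paired analysis was possible because each table used here gives 1 comparison over groups and no values by library; leaving out replicates, another normalization and another tool were not run for the same reason. Of 142 values under alternatives 138 kept their side of the threshold or their count: thresholds of 0.1 and 0.01, a minimum of 0.5 on the log2 scale, adjustment without a filter or over the genes of both tables, rescaled p-values, and the difference taken on z-values or rescaled. LIMK1 was called in DMSO and not in TPA under each (rescaled adjusted p in TPA = 0.221), and none of the other 9 genes was called. Of the 142 values, 100 belong to single genes of the 10. The 9 other than LIMK1 had unadjusted p-values of at least 0.467 in DMSO and 0.192 in TPA, so their values could hardly change side. In DMSO the adjustments without a filter and over the genes of both tables cover the same 13007 genes. The count of 138 is thus no measure of robustness. The 4 values that moved concern CORO1B: with rescaled p-values the lists held 1 called gene in DMSO and 1 in TPA in place of 0, where 109 and 113 of all genes were called in place of 14 and 22. The robust SD of z behind that rescaling was 0.753 in DMSO and 0.840 in TPA. The limits set by depth are not known here; the interval of SSH3 was the widest.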
